A study of Mus musculus with 16 samples.

Results

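The hemoglobin and erythroid genes described here are 8 of the 21959 genes listed in the deposited count tables: the adult alpha globins Hba-a1 and Hba-a2, the adult beta globins Hbb-bs and Hbb-bt, the heme synthesis enzyme Alas2, the transcription factor Klf1, the anion exchanger Slc4a1 and the membrane protein Ermap. They were taken by name, matched through their Ensembl identifiers to symbols of the GRCm39 annotation, and all 8 were listed in all 16 mice. RNA came from tumor tissue of male wild-type C57BL/6 mice injected at 6 weeks of age into the hemispleen with MC38 cells, a mouse colon adenocarcinoma line, which seed liver metastases from the spleen through the portal blood. Each group held 4 mice. Control mice received PBS. SB525334 mice received this inhibitor of the TGF-β type I receptor (ALK5) at 20 mg/kg by daily gavage. KN046 mice received a bispecific antibody against PD-L1 and CTLA-4 at 10 mg/kg by intraperitoneal injection, and combination mice received both agents. All 16 mice carried the injected cells, and the spleen had been injected in every group.

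Hemoglobin is a tetramer of 2 alpha-like and 2 beta-like chains, each holding a heme group. Maturing red cell precursors make it in marrow and, in the mouse, also in the red pulp of the spleen, and young circulating reticulocytes still carry globin mRNA after the nucleus has been lost. Alas2 catalyses the first, rate-limiting step of heme synthesis in these precursors. Klf1 is the transcription factor that binds CACCC elements in the adult beta-globin promoter and in many other red cell genes, usually beside sites for Gata1. Slc4a1, or band 3, exchanges chloride for bicarbonate and anchors the membrane skeleton, and Ermap is a surface protein of the immunoglobulin family that carries the Scianna blood group in humans. These transcripts in a tumor can therefore come from blood in the vessels or from precursors in the tissue, and counts of whole tissue do not tell these apart. In the same way, fewer cells of a type and less RNA per cell cannot be told apart in bulk tissue.

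The 4 adult globin genes lie as pairs of near copies, which bears on how their reads could be assigned. On GRCm39, Hba-a1 lies at chr11:32233186-32234504 and Hba-a2 at chr11:32246168-32247320, both on the plus strand, and Hbb-bs at chr7:103475730-103482989 and Hbb-bt at chr7:103461727-103465047, both on the minus strand. In the GENCODE M39 transcripts, the coding sequences of Hba-a1 and Hba-a2 are 429 bases long with the stop codon and differ by 1 base, C381T counted from the first coding base of Hba-a1, an identity of 99.8%. Those of Hbb-bs and Hbb-bt are 444 bases long and also differ by 1 base, C417T counted from the first coding base of Hbb-bs. The stretches below run around these bases, at coding positions 351 to 411 of the alpha pair and 387 to 444 of the beta pair, with the differing base in capitals:
Hba-a1: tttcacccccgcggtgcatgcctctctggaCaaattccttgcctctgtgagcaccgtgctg
Hba-a2: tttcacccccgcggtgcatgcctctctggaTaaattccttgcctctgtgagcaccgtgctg
Hbb-bs: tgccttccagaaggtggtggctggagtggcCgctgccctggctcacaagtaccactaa
Hbb-bt: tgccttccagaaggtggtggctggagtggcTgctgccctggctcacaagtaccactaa
Of all 100-base windows of the transcripts, 70.1% of those of Hba-a1 also occur in Hba-a2 and 81.8% the other way, and the shares for Hbb-bs and Hbb-bt are 58.6% and 54.7%. How reads that match both copies were handled is not given in the sources used here, so the level of each copy and the split within each pair are uncertain.

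The promoters of the members also share short letters. In RefSeq sequence of GRCm38.p6, the 250 bases before the start were at hand for 7 of the 8 genes, Slc4a1 being the exception. On either strand, all 7 held GATAA, the core recognised by GATA factors, and CACCC, the core recognised by Klf1. Among 32851 promoters of the same length 22.6% held GATAA, 52.0% held CACCC and 10.1% held both. CCAAT was found in 6 of the 7 (33.8% of all promoters) and TATAA in 6 of the 7 (22.8%). The windows of a pair of genes whose levels followed each other, Hbb-bs and Alas2, and of one that did not follow them, Ermap, are shown with each match to 1 of these 4 motifs in capitals, on either strand, so that a match to the minus strand reads as the reverse complement and touching or overlapping matches run together. Hbb-bs lies at chr7:103827929-103828178 on the minus strand, Alas2 at chrX:150547167-150547416 on the plus strand and Ermap at chr4:119189996-119190245 on the minus strand, all on GRCm38.p6:
Hbb-bs: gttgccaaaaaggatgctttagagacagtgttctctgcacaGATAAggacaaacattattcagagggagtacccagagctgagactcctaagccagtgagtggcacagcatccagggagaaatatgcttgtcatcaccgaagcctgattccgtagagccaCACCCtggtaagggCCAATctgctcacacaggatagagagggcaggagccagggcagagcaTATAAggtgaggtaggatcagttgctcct
Alas2: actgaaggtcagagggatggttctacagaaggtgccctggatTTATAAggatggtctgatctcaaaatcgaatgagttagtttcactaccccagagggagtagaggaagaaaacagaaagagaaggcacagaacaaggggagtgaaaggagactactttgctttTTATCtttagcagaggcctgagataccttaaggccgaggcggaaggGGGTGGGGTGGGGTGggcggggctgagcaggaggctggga
Ermap: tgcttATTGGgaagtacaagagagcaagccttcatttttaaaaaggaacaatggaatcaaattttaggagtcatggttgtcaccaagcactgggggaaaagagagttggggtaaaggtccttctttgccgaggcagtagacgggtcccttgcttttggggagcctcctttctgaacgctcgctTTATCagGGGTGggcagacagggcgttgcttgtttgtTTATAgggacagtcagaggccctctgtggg
The windows of Hba-a1 and Hba-a2 were identical in 247 of 247 bases once shifted by 3 bases. A match of letters is a description of the window and says nothing of binding in these tumors.

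Libraries held 18368994 to 23877131 counts per mouse, and the 4 adult globins together took 0.00042% to 0.0283% of it, so they are a small part of these libraries. Counts were scaled with TMM factors to CPM, counts per 1000000 counts of the scaled library, and 13968 genes passed the filter on low counts and were tested in edgeR with Benjamini-Hochberg adjustment, a gene being called at an adjusted p under 0.05. The labels number the mice and say no more of how they relate, and the 4 control mice fell into close pairs. Control mice 3 and 4 differed by more than sampling noise at 18.1% of genes and control mice 1 and 2 at 24.8%, where 5% is the share sampling alone gives, and the next closest of the 24 within-group pairs, combination mice 3 and 4, did so at 43.6%. Because of this, the differences from control were also fitted with each control pair summed to 1 sample, and a call that this ended is given as such. Of the 8 members, 7 passed the filter. Klf1 did not, and was examined by exact permutation tests and by fits without the filter.

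Taken per kilobase of transcript and averaged over the 16 mice, Hbb-bs stood at 76.2 CPM per kb, followed by Hba-a1 at 48.0, Hbb-bt at 11.3, Alas2 at 2.39, Hba-a2 at 1.78, Slc4a1 at 0.221, Klf1 at 0.185 and Ermap at 0.103. The order of neighbours was not the same in every group. In the combination group Slc4a1, at 0.744 ± 0.857 (SD, n = 4), stood above Klf1 at 0.198 ± 0.0981, whereas in control mice Klf1, at 0.293 ± 0.150, stood above Slc4a1 at 0.0679 ± 0.0427. In control mice the ranges of 1 SD overlapped for the neighbours Hbb-bs and Hba-a1, Alas2 and Hba-a2, and Slc4a1 and Ermap, but not for the other neighbours. The embryonic globins, made in the yolk sac, were close to absent: Hba-x, Hbb-y and Hbb-bh1 had 1, 2 and 3 counts in all 16 mice together. The label of red cell genes thus rests on the adult globins and Alas2. Defining genes of erythroblasts were sparse, with Epb42, a protein of the red cell membrane skeleton, at 0 to 20 counts and Gata1, the master erythroid transcription factor, at 0 to 10 counts.

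The beta globin Hbb-bs was lowest in the SB525334 mice and most variable in the other treated groups. Control mice 1 to 4 had 69.9, 78.8, 37.4 and 39.6 CPM, and SB525334 mice had 8.59, 9.32, 25.8 and 2.15 CPM. KN046 mice had 40.5, 31.0, 157 and 31.6 CPM, and combination mice had 27.5, 117, 4.04 and 129 CPM. Every SB525334 mouse therefore lay below every control and every KN046 mouse, whereas the combination mice spanned almost the whole range of the study. The group means were 56.4 ± 21.0 CPM in control, 11.5 ± 10.1 in SB525334, 65.0 ± 61.5 in KN046 and 69.3 ± 62.8 in combination mice (SD, n = 4 each).

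Hba-a1, the more abundant alpha globin by these counts, repeated this order mouse by mouse. It stood at 48.5, 54.6, 30.5 and 31.4 CPM in control mice and at 5.29, 6.85, 15.9 and 1.51 CPM in SB525334 mice. The KN046 mice had 35.5, 19.1, 116 and 22.3 CPM, and the combination mice 19.4, 66.0, 3.44 and 90.3 CPM. The same mice were high and low as for Hbb-bs, with KN046 mouse 3 highest and SB525334 mouse 4 lowest of all 16. The minor copies moved alike: Hbb-bt had group means of 8.99 ± 3.88, 1.73 ± 1.77, 10.6 ± 12.0 and 10.4 ± 9.42 CPM in control, SB525334, KN046 and combination mice, and Hba-a2 of 1.38 ± 0.423, 0.359 ± 0.245, 1.35 ± 0.792 and 1.51 ± 1.42 CPM (SD, n = 4). Hba-a2 counts ran from 1 to 60 per mouse, so its values carry the largest counting error of the 4.

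**Figure D1:**
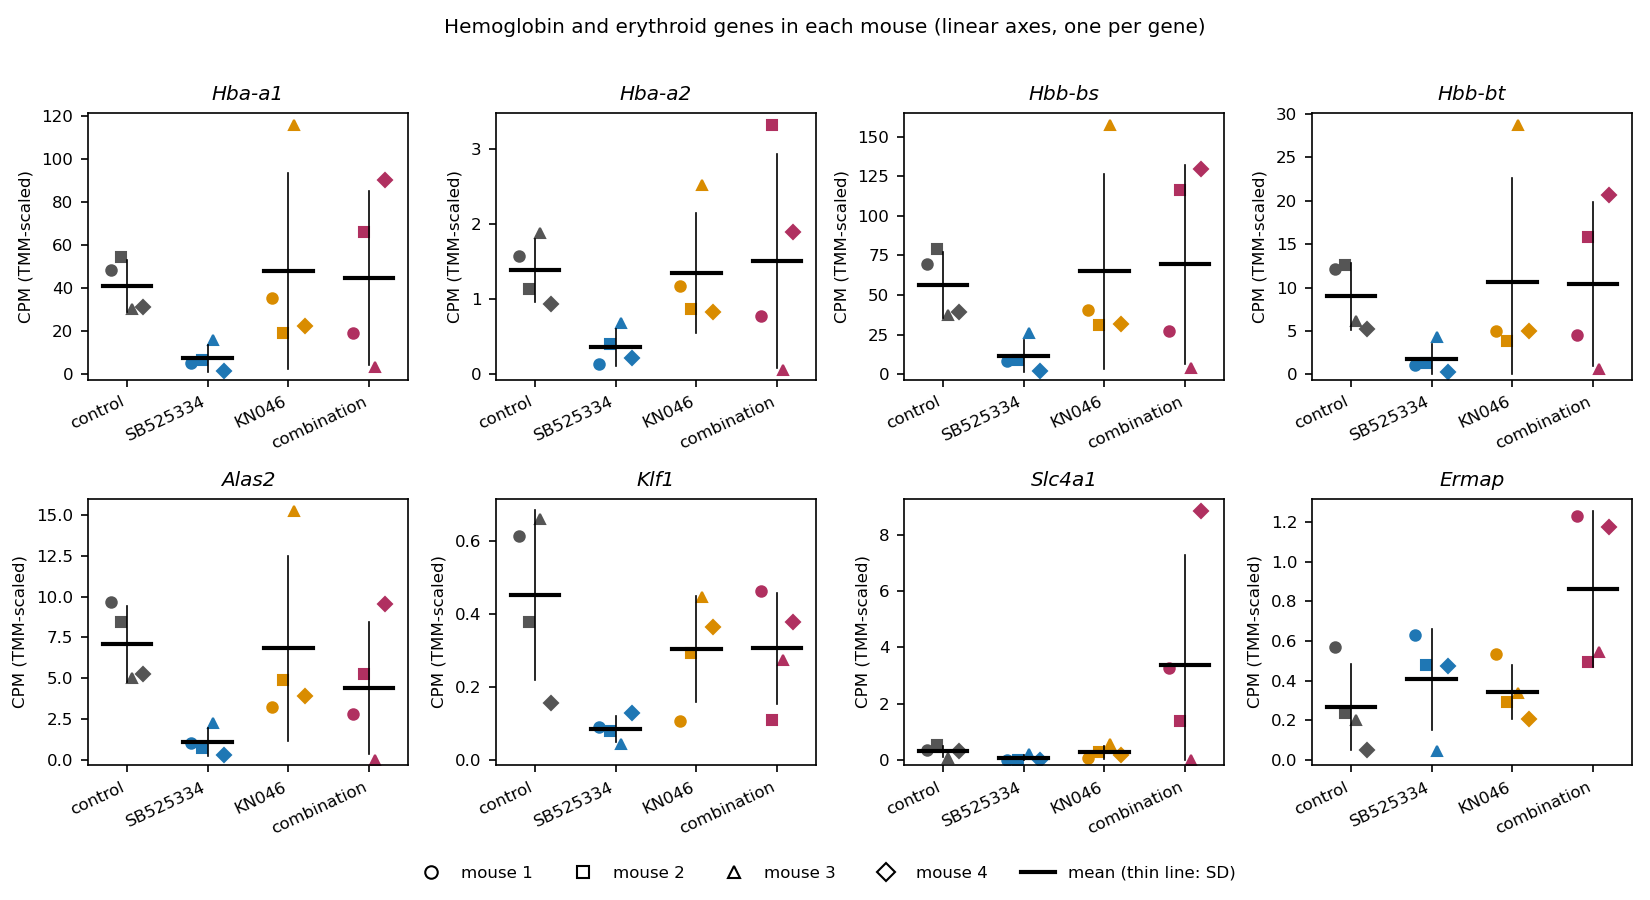
Levels of the 8 genes in each mouse, in TMM-scaled CPM on linear axes that differ between genes, with the 4 groups on the horizontal axis, 1 symbol per mouse number, a thick bar at the group mean and a thin line of 1 SD to each side (drawn no lower than 0). The SB525334 mice lie below all control mice for the 4 globins, Alas2 and Klf1, KN046 mouse 3 stands above its group for Hba-a1, Hbb-bs, Hbb-bt and Alas2, and Slc4a1 is high in combination mice 1 and 4.

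Alas2 marks precursors and reticulocytes that are still making heme. Control mice had 9.67, 8.47, 5.02 and 5.28 CPM, against 1.04, 0.756, 2.28 and 0.302 CPM in SB525334 mice, with no overlap. KN046 mice had 3.25, 4.91, 15.3 and 3.90 CPM. Combination mice had 2.82, 5.24, 0 and 9.57 CPM, and the count of 0 in combination mouse 3 allows a level of up to 0.164 CPM (3 counts, for counting error only). This mouse also had the second-lowest adult globin level of all, 8.13 CPM, whereas combination mouse 4 had 242 CPM although those libraries were the closest pair of their group over all genes. The adult globin level spanned 1.94-fold among control mice, 11.2-fold among SB525334, 5.55-fold among KN046 and 29.8-fold among combination mice.

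In SB525334 against control mice, 1 of the 7 tested members was called, Alas2, which fell by 2.70 on the log2 scale (SE 0.82, adjusted p = 0.0462), a 6.48-fold difference. Over all genes tested, 9.22% were called lower and 0.394% higher in this comparison. The 4 globins had log2 differences of -2.48 for Hba-a1 (SE 0.79, adjusted p = 0.0591), -2.30 for Hbb-bs (SE 0.82, adjusted p = 0.102), -2.38 for Hbb-bt (SE 0.88, adjusted p = 0.119) and -1.92 for Hba-a2 (SE 0.72, adjusted p = 0.127), none of which was called. The median of the 7 members was -2.38, against 0.00059 over all genes. For the 4 globins and Alas2 every SB525334 mouse lay below every control mouse, where 13.3% of all tested genes showed such a separation downwards. Klf1, which is not among the tested genes, was separated in CPM but not in counts. With the control pairs summed, the adjusted p of the 4 globins was 0.179 to 0.312. The call of Alas2 was lost with each control pair summed to 1 sample (adjusted p = 0.148) and on leaving out any mouse of the comparison other than SB525334 mouse 3 (adjusted p 0.0557 to 0.131), while the log2 difference stayed between -3.34 and -2.39.

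In SB525334 against KN046 mice 4 of the 7 tested members were called lower, where 13.5% of all genes were. The means compared hold no control mouse, but the fit shares its estimate of the spread with the control mice. This comparison was not fitted with the control pairs summed. Hba-a1 fell by 2.70 on the log2 scale (SE 0.80, adjusted p = 0.0249), Alas2 by 2.63 (SE 0.82, adjusted p = 0.0328), Hbb-bs by 2.50 (SE 0.83, adjusted p = 0.0419) and Hbb-bt by 2.61 (SE 0.89, adjusted p = 0.0465). The difference of Hba-a2 was -1.88 (SE 0.73, adjusted p = 0.0763). Hba-a1, Hba-a2, Hbb-bs and Alas2 were lower in every SB525334 mouse than in every KN046 mouse, a separation shown by 13.1% of all genes. For the 4 called members the KN046 mean rests much on mouse 3, and without it Hba-a1 stood at -1.78 (adjusted p = 0.117), Hbb-bs at -1.57 (adjusted p = 0.181), Hbb-bt at -1.40 (adjusted p = 0.251) and Alas2 at -1.87 (adjusted p = 0.130). Leaving out SB525334 mouse 1, 2 or 4 also ended all 4 calls, and leaving out KN046 mouse 1 ended those of Hbb-bs and Hbb-bt (adjusted p 0.0561 and 0.0541). In an edgeR fit of the 8 mice of this comparison alone, Hba-a1, Hbb-bs and Alas2 stayed called (adjusted p 0.0226 to 0.0420). Hbb-bt did not (adjusted p = 0.0596).

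KN046 and control mice were not told apart by any member. None of the 7 was called at an adjusted p under 0.05 and none had an unadjusted p under 0.05, by edgeR, and DESeq2 called 0 as well, where 1.60% of all genes were called higher and 2.40% lower. The log2 differences lay between -0.24 for Slc4a1 (SE 1.16) and 0.32 for Ermap (SE 0.67), with SEs of 0.66 to 0.81 for the globins and Alas2, so equal levels are not shown. KN046 mouse 3 set the level of its group. The adult globins summed to 82.1, 54.8 and 59.8 CPM in KN046 mice 1, 2 and 4 and to 304 CPM in mouse 3, and the group mean was 125 ± 120 CPM with mouse 3 (SD, n = 4) and 65.6 ± 14.6 CPM without it (SD, n = 3), against 108.0 ± 36.9 CPM in control mice (SD, n = 4). Without mouse 3 the log2 differences from control were -0.69 for Hba-a1, -0.52 for Hba-a2, -0.72 for Hbb-bs, -0.96 for Hbb-bt and -0.82 for Alas2 (adjusted p 0.532 to 0.727), so the sign of these estimates turned or grew more negative, again with no call.

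The globins of combination mice were likewise not separated from those of control mice, with log2 differences of 0.12 for Hba-a1, 0.12 for Hba-a2, 0.30 for Hbb-bs and 0.21 for Hbb-bt (SE 0.66 to 0.81, adjusted p 0.858 to 0.941), where 1.37% of all genes were called higher. That of Alas2 was -0.68 (SE 0.75, adjusted p = 0.642). Against SB525334 mice the combination globins lay 2.04 to 2.60 log2 units higher and Alas2 2.01 higher, at adjusted p from 0.1004 for Hba-a1 to 0.351 for Alas2. Combination mouse 3 lay within the range of the SB525334 mice for Hba-a1, Hbb-bs and Hbb-bt and below all of them for Hba-a2 (0.0546 CPM) and Alas2 (0 CPM). Without combination mouse 3, 6 of the 7 members, Slc4a1 among them, were called higher in the combination group, against Slc4a1 alone with it. With this mouse 0.544% of all genes were called higher than in SB525334 mice, and the share without it is not given for this fit. In the edgeR fit without the filter on low counts these shares were 0.519% with it and 0.627% without it. Combination mouse 3 had the lowest globins of its group, so the count of members without it is a description. Slc4a1 entered the fit through its values in combination mice, so its part in both counts of members is a description too. The difference between the SB525334 effect with and without KN046, tested as an interaction, called 0 of the 7 members by edgeR, where 4.28% of all genes were called. Of these 7, 4 had an unadjusted p under 0.05, DESeq2 called 1, and the estimates were 2.08 to 2.39 for the globins (adjusted p 0.264 to 0.335) and 2.08 for Alas2 (SE 1.10, adjusted p = 0.364).

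**Figure D2:**
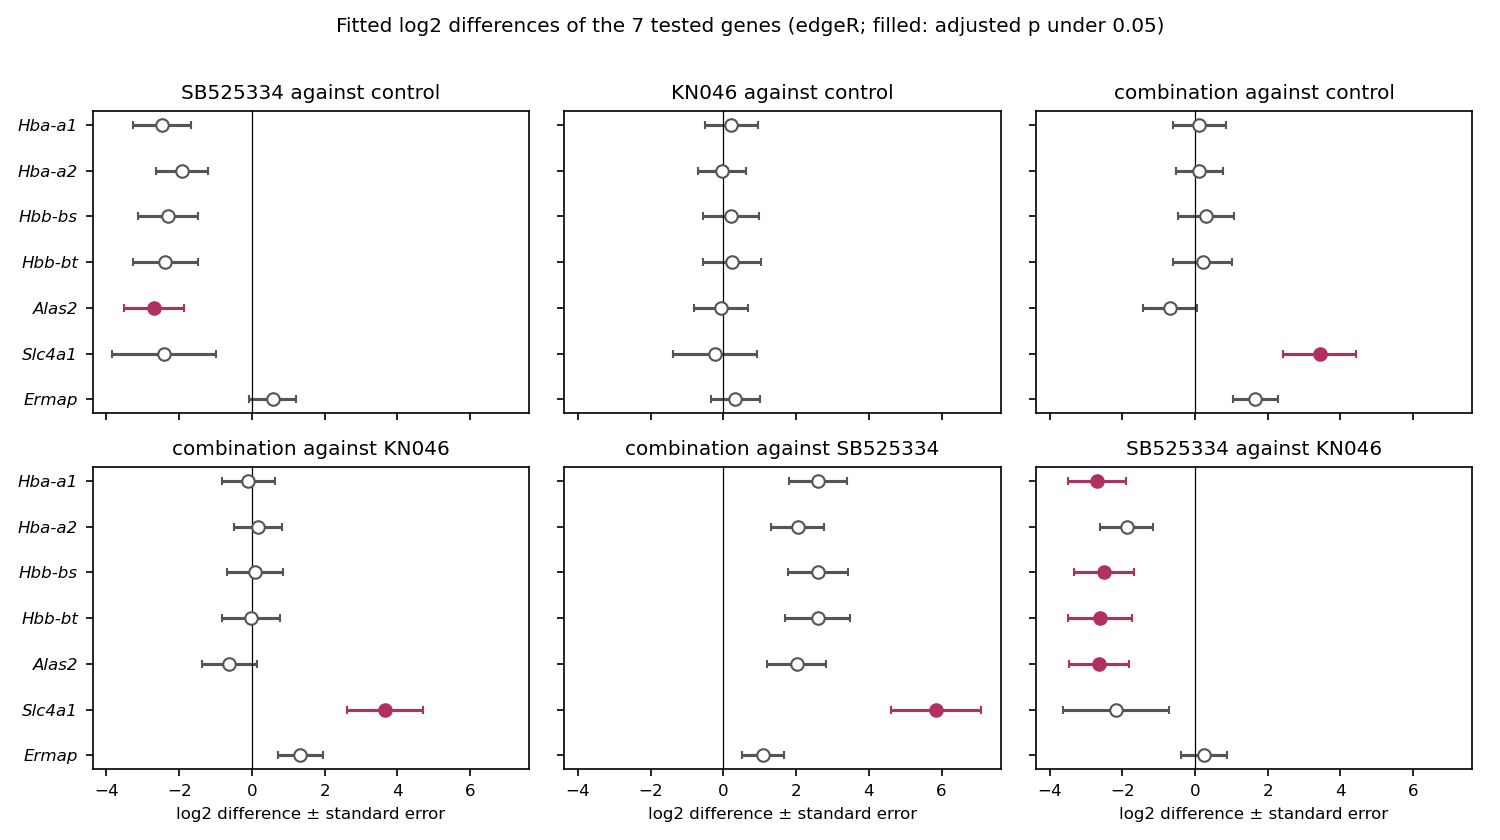
Fitted log2 differences (horizontal axis, with standard error) of the 7 tested genes in the 6 comparisons, filled where the adjusted p was under 0.05. Alas2 is filled in SB525334 against control, Hba-a1, Hbb-bs, Hbb-bt and Alas2 in SB525334 against KN046, and Slc4a1, which entered the fit through its values in combination mice, in the 3 comparisons that hold the combination group.

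Slc4a1, which is made late in red cell maturation, followed another pattern. Control mice had 8, 11, 1 and 6 counts, SB525334 mice 0, 0, 5 and 0, and KN046 mice 1, 6, 10 and 3. Combination mice had 64, 25, 0 and 188 counts, or 3.29, 1.38, 0 and 8.86 CPM. The gene was thus high in combination mice 1, 2 and 4 and not detected in mouse 3. The 4 counts of 0 allow levels of up to 0.119 to 0.164 CPM. Of the 5 mice above the level that the filter on low counts asks for, 3 were combination mice, so Slc4a1 entered the fit through the values that make it high, and its differences there are a description: 3.42 against control (SE 1.003), 3.66 against KN046 (SE 1.03) and 5.84 against SB525334 mice (SE 1.24) on the log2 scale. In each comparison 3 of 4 combination mice lay above all mice of the other group.

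A fit by edgeR without this filter, over the 17902 genes with at least 1 count, tests the gene whatever its level. It gave 3.43 against control (SE 0.97, adjusted p = 0.0282, 0.966% of all genes called higher), 3.66 against KN046 (SE 1.001, adjusted p = 0.0153, 7.17% of all genes) and 5.84 against SB525334 mice (SE 1.20, adjusted p = 0.00509, 0.519% of all genes). These comparisons share the combination mice, and mouse 4 weighs on all of them: without it the differences in this fit were 2.32 (adjusted p = 0.207), 2.55 (adjusted p = 0.105) and 4.71 (adjusted p = 0.0384). The call against control was also lost without control mouse 1, 3 or 4 (adjusted p 0.0580 to 0.0746) and with the control pairs summed (adjusted p = 0.156). The other mice, left out 1 at a time in this fit, ended no call of Slc4a1. The fits without filter that leave out a mouse or sum the pairs were added after the data were seen. The interaction estimate for Slc4a1 was 6.08 with the filter (SE 1.74, adjusted p = 0.0585) and 6.07 without it (SE 1.66, adjusted p = 0.0480, 1.39% of all genes called higher). Without the filter, the interaction was not refitted with a mouse left out or the control pairs summed.

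Ermap stood at 0.569, 0.237, 0.203 and 0.0523 CPM in control mice, 0.633, 0.478, 0.0430 and 0.474 in SB525334 mice, 0.533, 0.292, 0.335 and 0.208 in KN046 mice, and 1.23, 0.497, 0.546 and 1.18 CPM in combination mice. Its group means were highest in the combination, at 0.863 ± 0.396 CPM (SD, n = 4) against 0.265 ± 0.218 in control mice, yet the difference of 1.66 was not called (SE 0.62, adjusted p = 0.109, and 0.292 with the control pairs summed) and groups overlapped. Unlike the globins, Ermap was not lower in SB525334 than in control mice, its difference being 0.57 (SE 0.65, adjusted p = 0.732). With 1 to 25 counts per mouse, these are thin values.

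Klf1 had 14, 8, 13 and 3 counts in control mice, 2, 2, 1 and 3 in SB525334 mice, 2, 6, 8 and 7 in KN046 mice and 9, 2, 5 and 8 in combination mice. In CPM the control mean was 0.452 ± 0.232 and the SB525334 mean 0.0856 ± 0.0355 (SD, n = 4), and the highest SB525334 mouse, at 0.129, lay just below the lowest control mouse, at 0.157. Each of these mice had 3 counts, so only the scaling of the libraries separated them. The exact permutation test, two-sided, gave p = 0.0286, the smallest that 4 against 4 mice allow, and an adjusted p of 0.114 over the 6 comparisons of this gene. Fitted without the filter on low counts, edgeR gave a difference of -2.32 (SE 0.65, adjusted p = 0.0299), and DESeq2 gave -2.39 (SE 0.79, adjusted p = 0.0291). With the control pairs also summed, edgeR gave -2.35 (SE 0.72, adjusted p = 0.0682), an alternative added after the data were seen. Exact permutation p in the other 5 comparisons was 0.0571 to 0.943. Klf1 on GRCm39 (chr8:85628557-85631934, plus strand) overlaps exons of Gcdh on the opposite strand, as Alas2 (chrX:149330371-149353634, plus strand) overlaps exons of Apex2. The strand setting of the counting is not given in the sources used here, so reads of such partners cannot be told apart. Group means in control, SB525334, KN046 and combination mice were 35.9, 20.1, 31.2 and 18.5 CPM for Gcdh. For Apex2 they were 19.6, 21.6, 18.3 and 20.4 CPM. Whether reads of these partners enter the counts of Klf1 and Alas2 was not tested.

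Across the 16 mice the globins and Alas2 rose and fell together. Against Hbb-bs, on log2 CPM, Pearson's r was 0.995 for Hba-a1, 0.994 for Hbb-bt, 0.924 for Alas2 and 0.921 for Hba-a2, with Spearman's rho of 0.997, 0.979, 0.929 and 0.941 (permutation p = 1e-05 each, the smallest that 100000 permutations can give, adjusted p = 1.75e-05 over 7 relations). Leaving out the 2 mice farthest from the median, SB525334 mouse 4 and combination mouse 3, gave r of 0.991, 0.992, 0.928 and 0.912, and after subtraction of group means r was 0.994, 0.991, 0.940 and 0.879. Slc4a1 followed Hbb-bs less closely, with r of 0.694 and rho of 0.773 (permutation adjusted p 0.0042 and 0.00084), r of 0.648 without the 2 mice and 0.784 after subtraction of group means. For Klf1, r was 0.407 (rho 0.447, permutation adjusted p 0.137 and 0.0985) and -0.0954 after subtraction of group means. Ermap showed r of -0.0497 and rho of -0.0147 (permutation adjusted p 0.855 and 0.960). All values of a mouse come from 1 library, which they share with its depth and scaling, and the near copies may share reads.

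The proportions of the chains within a mouse varied little beside these levels. The alpha share of the adult globin counts ran from 34.4% to 44.6% over the 16 mice, with a median of 38.7%, while the summed level spanned 72.8-fold. Hbb-bt made up 10.8% to 15.4% of the beta counts (median 13.3%). In the deepest case, KN046 mouse 3, its share was 15.4% (exact 95% binomial interval 14.2% to 16.7%), and in the shallowest, SB525334 mouse 4, it was 12.3% (5.08% to 23.7%). Hba-a2 made up 1.56% to 12.5% of the alpha counts (median 3.40%), the highest value coming from SB525334 mouse 4, where it rests on 5 of 40 counts. These intervals cover counting error only, since the reads carry no molecular identifiers by the sources used here.

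Per 1000 adult globin counts, Alas2 stood at 66.4 ± 6.53 in control, 58.1 ± 14.7 in SB525334, 61.2 ± 21.7 in KN046 and 29.9 ± 23.0 in combination mice (SD, n = 4). In control mice 1 to 4 the ratio was 73.2, 57.6, 66.1 and 68.4, and in combination mice it was 54.1, 26.0, 0 and 39.5, all below every control mouse. The exact permutation test gave p = 0.0286, two-sided, and an adjusted p of 0.490 over the 24 ratios tested, so this difference did not hold after adjustment. Slc4a1 showed 2.73 ± 1.49, 1.15 ± 2.30, 2.60 ± 1.98 and 26.6 ± 29.0 per 1000 globin counts in the same groups, with 63.0, 6.84, 0 and 36.6 in combination mice 1 to 4 (exact permutation p = 0.171 against control). At similar globin counts, 1016 in combination mouse 1 and 1085 in SB525334 mouse 3, Slc4a1 had 64 and 5 counts.

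**Figure D3:**
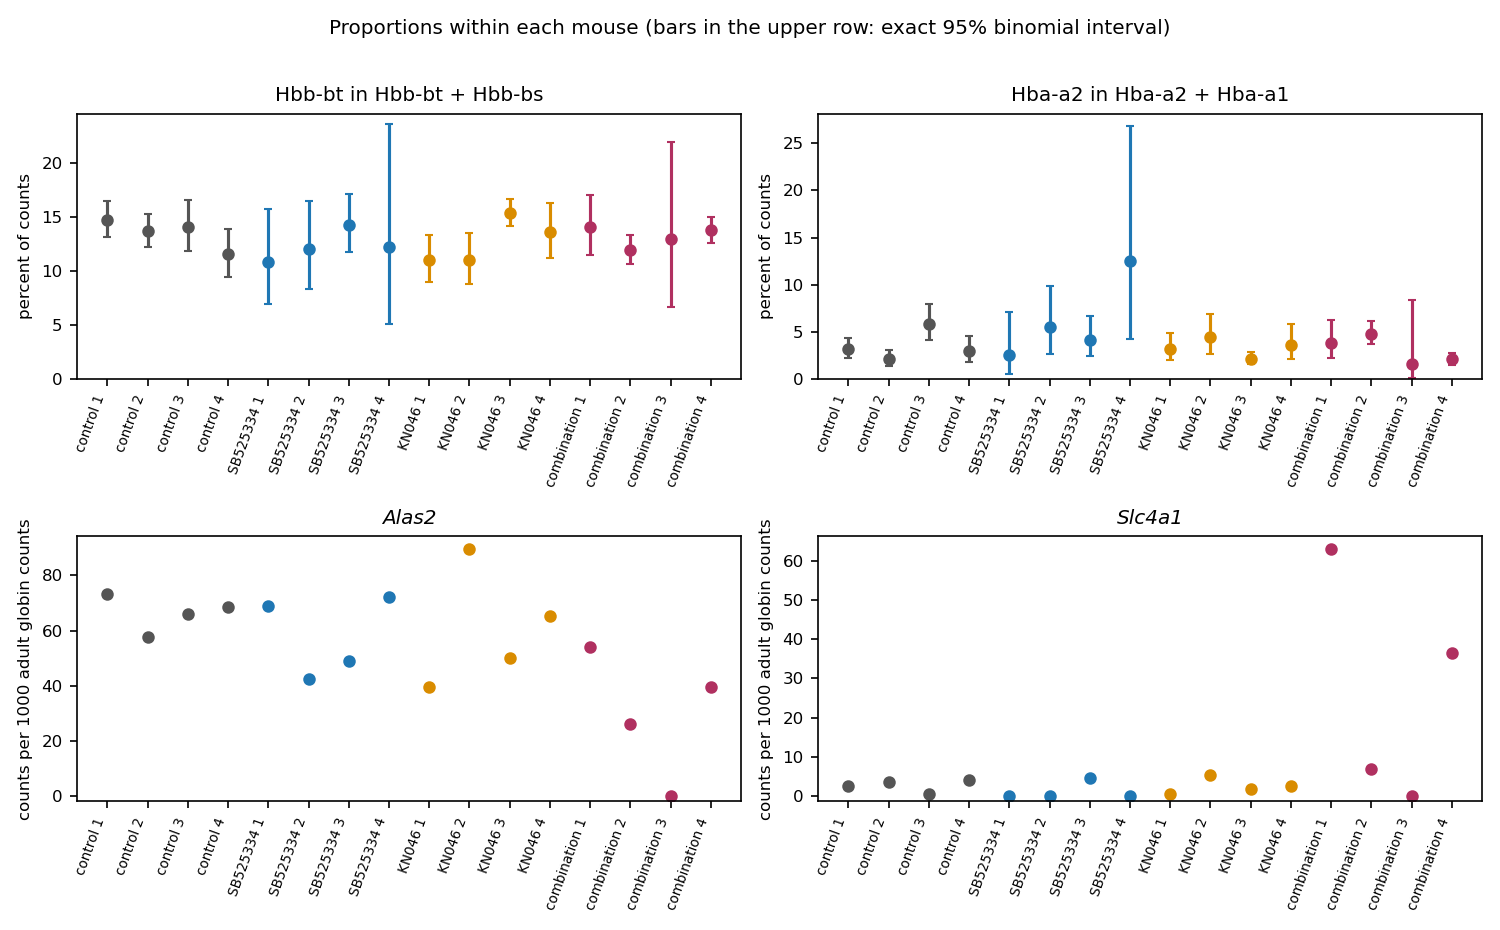
Proportions in each of the 16 mice, colored by group: in the upper row the percent of beta-globin counts from Hbb-bt and of alpha-globin counts from Hba-a2 with exact 95% binomial intervals, in the lower row Alas2 and Slc4a1 counts per 1000 adult globin counts. The globin proportions stay between 10.8% and 15.4% for Hbb-bt, whereas Slc4a1 per globin stands out in combination mice 1 and 4.

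The wider red cell program was followed in a list of 44 further genes, chosen with earlier results of these data known, of which 43 were listed and 29 were tested. In SB525334 against control mice 2 of the 29 were called, both lower, where 9.22% of all genes were, and the list median was -0.08. These were Car2, carbonic anhydrase 2, at -2.11 (SE 0.58, adjusted p = 0.0235) and Zfpm1, the Gata1 cofactor FOG1, at -0.58 (SE 0.15, adjusted p = 0.0143). The count was 0 without SB525334 mouse 1, 2 without SB525334 mouse 2, 1 without any other single mouse of the 8, and 0 with summed control pairs. In SB525334 against KN046 mice 4 were called lower, namely the tropomodulin gene Tmod1, Zfpm1, the ferrochelatase gene Fech and the mitophagy gene Bnip3l, where 13.5% of all genes were, and 1 higher, the glycophorin C gene Gypc, where 6.48% were.

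In combination against control mice 2 of the 29 wider genes were called, both lower: Zfpm1 at -0.64 (SE 0.15, adjusted p = 0.00600) and Cpox, a heme synthesis enzyme of all cells, at -0.41 (SE 0.12, adjusted p = 0.0263), where 9.74% of all genes were called lower. With the control pairs summed the call of Zfpm1 held (adjusted p = 0.0284) and that of Cpox did not (adjusted p = 0.110). Against KN046 mice 3 were called higher and 4 lower, where 9.89% and 14.5% of all genes were, and against SB525334 mice 1 was called higher, Car2, at 2.31 (SE 0.58, adjusted p = 0.0302), where 0.544% of all genes were. KN046 against control called 1, Fech, at 0.45 (SE 0.12, adjusted p = 0.0460), and the interaction called 1, the transferrin receptor gene Tfrc, at -1.24 (SE 0.32, adjusted p = 0.0361). Both calls were lost with the control pairs summed (adjusted p 0.281 and 0.137). Many list genes, such as the heme pathway enzymes, are active in all cells, and the summed level of the list was 835 to 1056 CPM in every mouse.

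The 14 wider genes under the filter include Epb42, Rhag, Kel, Hemgn, Trim10, Trim58, Car1 and Gata1, and not all of them are made by red cell precursors alone. Their summed counts were 17, 24, 12 and 10 in control mice, 3, 8, 6 and 6 in SB525334 mice, 2, 19, 9 and 13 in KN046 mice, and 59, 45, 11 and 174 in combination mice. All SB525334 mice lay below all control mice, and combination mice 1, 2 and 4 lay above every other mouse. As examples from combination mice 1 to 4, Car1, carbonic anhydrase 1, had 9, 3, 0 and 48 counts, Hemgn, the erythroid nuclear protein hemogen, 21, 3, 0 and 25, and Epb42, which binds band 3, 11, 2, 0 and 20. Car1 had at most 3 counts in any mouse of the other groups, Hemgn at most 3 and Epb42 at most 2. Not every gene of the sum did so: Add2 had 1, 10, 3 and 9 counts in combination mice and up to 8 in the other groups. These genes were too low for the fit across genes and were chosen as examples after their values were seen, so the counts are a description without a test.

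**Figure D4:**
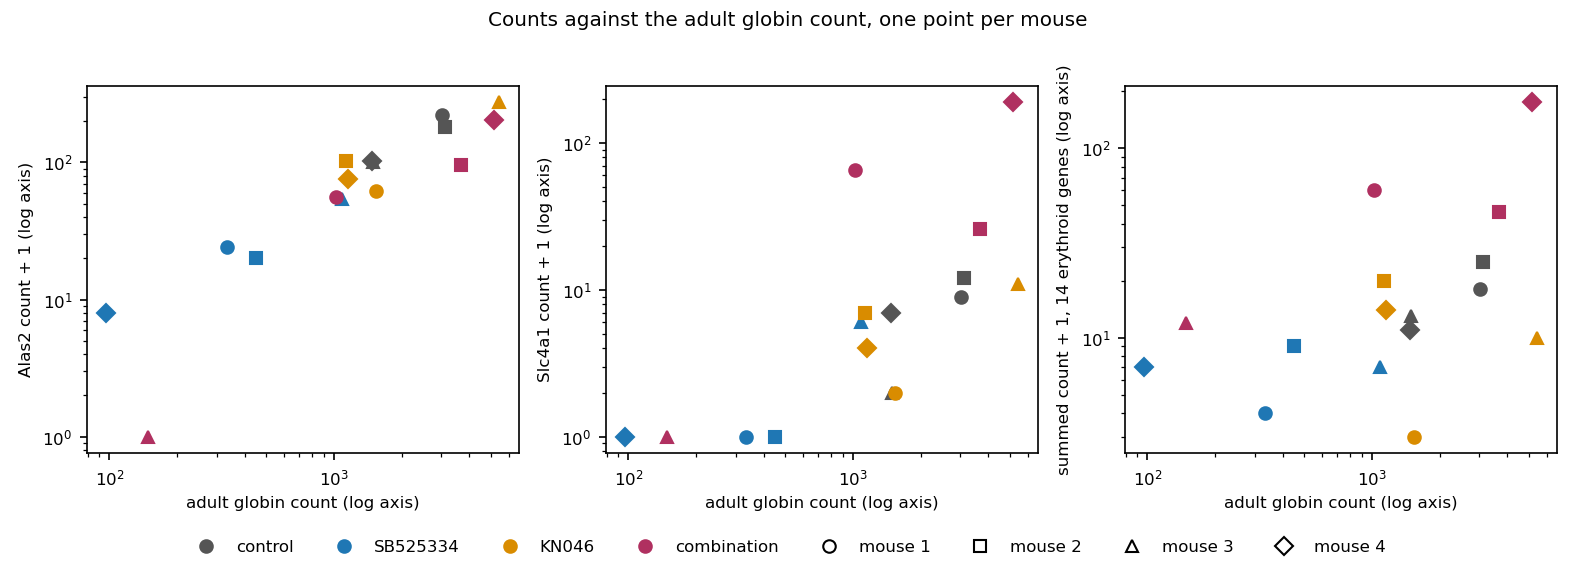
Counts plus 1 of Alas2, of Slc4a1 and of the 14 wider erythroid genes under the filter (vertical axes) against the adult globin count (horizontal axes), all log axes, 1 point per mouse. Alas2 runs along with the globin count apart from the 0 in combination mouse 3, while combination mice 1 and 4 stand above the other mice of similar globin count for Slc4a1 (64 and 188 counts) and for the 14 genes (59 and 174 counts).

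By the fixed measure, the correlation over 16 mice of a gene's log2 CPM with the mean centred log2 CPM of the 7 tested members, 9 of the 10 most similar genes outside the members were Cd24a (r = 0.855), Car2 (0.844), Slpi (0.821), Hmox1 (0.807), Gem (0.803), Retnlg (0.797), Pecam1 (0.791), Eaf2 (0.781) and S1pr1 (0.780). After subtraction of group means the r of these genes was 0.825, 0.738, 0.803, 0.727, 0.730, 0.843, 0.662, 0.710 and 0.728. Cd24a encodes a surface glycoprotein of immature blood cells, Hmox1 the enzyme that opens the heme ring, and Retnlg a secreted protein of neutrophils.

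Genes of heme and iron handling were followed as a list of 14, all tested. In SB525334 mice 7 were called lower than in control mice, where 9.22% of all genes were, in combination mice 6, where 9.74% were, and in KN046 mice 0, and none was called higher. With the control pairs summed these counts were 6, 6 and 0. The scavenger carriers of hemoglobin and heme from the liver, Hp and Hpx, had differences of -3.23 (SE 0.43) and -3.34 (SE 0.37) in SB525334 mice and of -8.31 (SE 0.55) and -10.36 (SE 0.52) in combination mice, and Cd163, the macrophage receptor for the haptoglobin complex, of -2.91 (SE 0.53) and -3.76 (SE 0.57). All 6 differences were called, also with the control pairs summed. In SB525334 mice the globins, at -2.48 to -1.92, lay below control as well, without a call, and the difference between these genes and the globins was not tested. In combination against SB525334 mice, 1 of the 14 was called higher, Hmox1, by 1.29 (SE 0.28, adjusted p = 0.0103), where 0.544% of all genes were. In the same comparison 4 of the 14 were called lower.

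Markers of other cells also differed between these groups. The summed level of 15 hepatocyte genes was 13629 to 15174 CPM in control, 8897 to 17670 in KN046, 346.5 to 1750 in SB525334 and 56.1 to 67.9 CPM in combination mice, with all 15 called lower in SB525334 and in combination mice against control, also with the control pairs summed. Over all genes, 9.22% were called lower than in control in SB525334 and 9.74% in combination mice. The 5 Kupffer cell genes summed to 162 to 331 CPM in control, 52.6 to 392 in KN046, 9.56 to 24.3 in SB525334 and 1.47 to 12.4 CPM in combination mice. The SB525334 mice were thus low in liver markers and low in globins, whereas the combination mice were lower still in liver markers with globins of 8.13 to 242 CPM. The 5 sinusoidal endothelial genes summed to 121 to 228, 97.6 to 122, 130 to 184 and 106 to 146 CPM in control, SB525334, KN046 and combination mice. The largest part of this sum is Fcgr2b, a receptor also found on B cells and macrophages, with group means of 113.5, 104.8, 83.9 and 113.5 CPM. The other 4, Stab2, Clec4g, Lyve1 and Oit3, were all called lower in SB525334 than in control mice, and Clec4g, Lyve1 and Oit3 also in combination mice, in each case also with the control pairs summed. The shares of all genes called lower are those given above beside the hepatocyte genes. Lyve1, for example, had group means of 12.6, 2.35, 31.3 and 0.146 CPM.

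The 8 genes of immature granulocytes, which arise with red cells in marrow and spleen, summed to 165 to 181 CPM in control, 3.66 to 45.2 in SB525334, 11.3 to 18.6 in KN046 and 3.38 to 167 CPM in combination mice, with combination mouse 4 highest of its group. Of these 8, 7 were called lower in SB525334 than in control mice, where 9.22% of all genes were. In KN046 mice 7 were, where 2.40% of all genes were. With the control pairs summed, 7 were called in SB525334 and 0 in KN046 mice. Elane, Mpo, Ctsg and Camp passed the filter on low counts through the control mice, where they are high. Their part in these counts is therefore a description. Elane, for example, had 7.84 to 9.23 CPM in control mice and at most 0.0452 in SB525334 and 0.340 in KN046 mice. The 8 genes of splenic lymphoid follicles and stroma summed to 6.69 to 8.28 CPM in control, 0.560 to 1.11 in SB525334, 1.62 to 6.47 in KN046 and 3.22 to 30.6 CPM in combination mice, and in combination mice mouse 1, at 17.3 CPM, and mouse 4, at 30.6 CPM, were highest, the same mice in which Slc4a1 was highest. The splenic mesenchyme factors Tlx1 and Nkx2-5 had 25, 24, 22 and 33 counts and 11, 11, 13 and 31 counts in combination mice 1 to 4, and the stromal gene Coch 162, 16, 17 and 127, against at most 3, 2 and 7 counts in any other mouse. They passed the filter on low counts through the combination mice, so these counts are a description. Cxcl13, the chemokine of B cell follicles, was called lower in combination than in control mice, a call lost with the control pairs summed (adjusted p = 0.0791). Of 8 megakaryocyte and platelet genes 4 were tested, and 1, the platelet chemokine gene Ppbp, was called lower in SB525334 than in control mice at -2.69 (SE 0.77, adjusted p = 0.0303), a call lost with the control pairs summed (adjusted p = 0.104). The 6 mature neutrophil genes summed to 153 to 176, 68.7 to 96.8, 48.2 to 102 and 78.1 to 193 CPM, and 6 progenitor genes to 461 to 582, 570 to 671, 491 to 728 and 618 to 733 CPM in control, SB525334, KN046 and combination mice. In SB525334 mice the first sum is mostly Mmp9, with group means in the 4 groups of 56.7, 69.4, 50.3 and 72.5 CPM, and the second is mostly Cd34, an endothelial gene as well, at 491.9, 580.5, 552.8 and 633.9 CPM. Some more restricted members were lower in SB525334 than in control mice: S100a9 at 2.05 against 53.8 CPM, S100a8 at 0.765 against 27.8, Retnlg at 0.0861 against 3.34, Kit at 3.10 against 9.26 and Myb at 0.156 against 0.911 CPM. On the same progenitor list, Gata2 stood higher, at 9.58 against 8.06 CPM, and Meis1 little lower, at 8.42 against 9.21 CPM. In all, 4 of 6 neutrophil genes and 2 of 5 tested progenitor genes were called lower there (4 and 1 with the control pairs summed), where 9.22% of all genes were. Myb passed the filter on low counts mainly through the control mice, where it is high, so its part in the progenitor count is a description. Proliferation genes (5) summed to 1107 to 1604 CPM in every mouse. The part of liver, spleen, marrow cells or blood in the differences of the red cell genes was not tested.

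**Figure D5:**
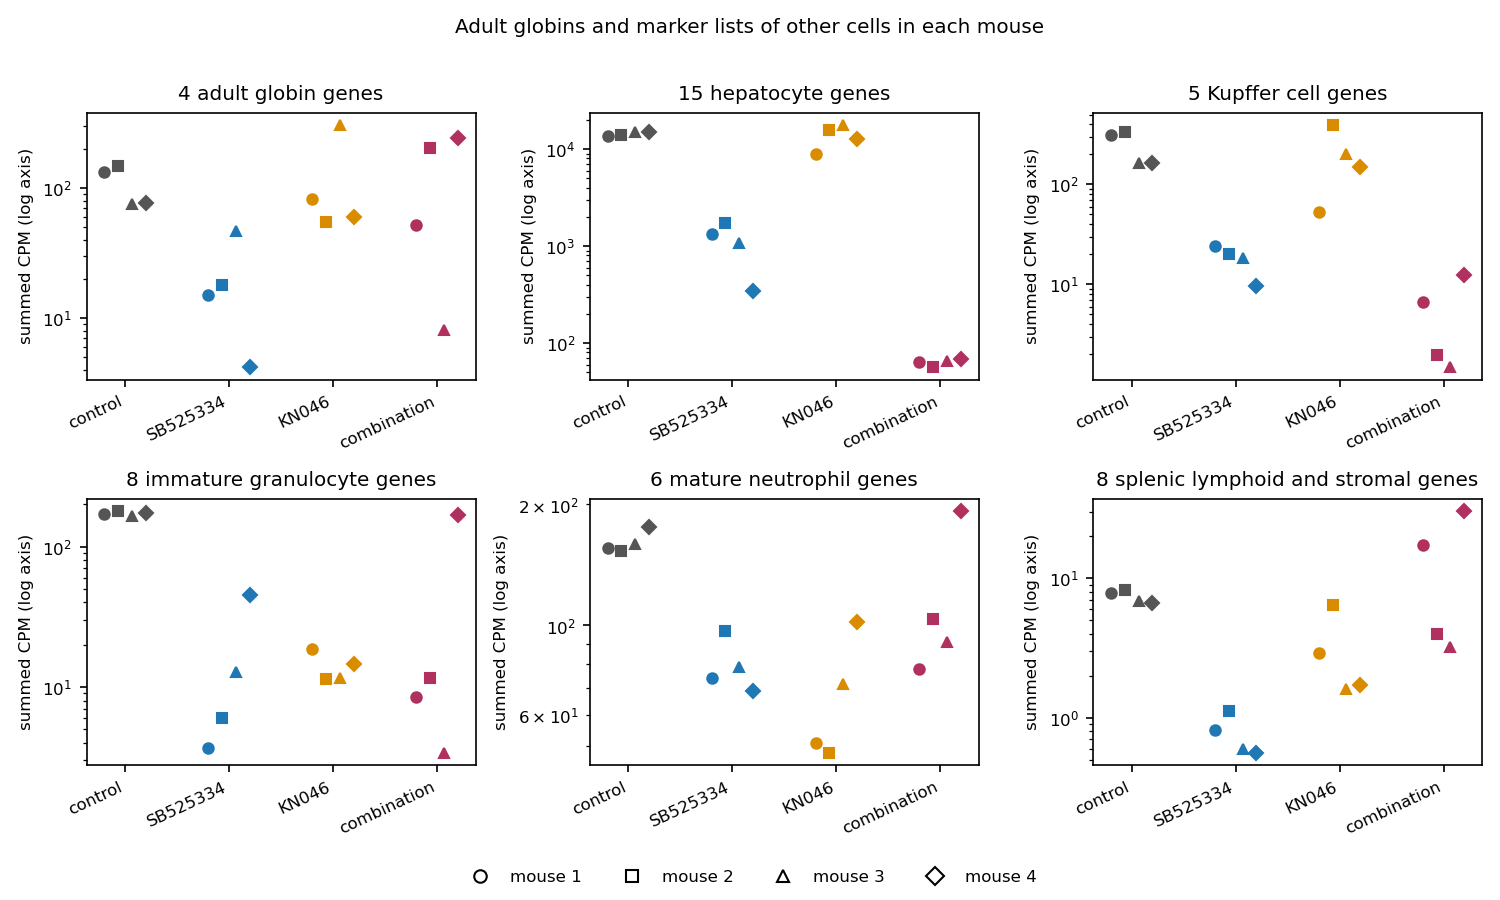
Summed CPM (log axes) of the 4 adult globins and of marker lists of hepatocytes, Kupffer cells, immature granulocytes, mature neutrophils and splenic lymphoid and stromal cells in each mouse, by group, with a symbol per mouse number. Hepatocyte genes step from 13629 to 15174 CPM in control mice down to 56.1 to 67.9 CPM in combination mice, while the globins of combination mice range from 8.13 to 242 CPM. Combination mouse 4 is highest of its group in every panel, those of hepatocyte and Kupffer cell genes included.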

How the data were processed

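RNA-seq of tumor tissue was analysed from 16 mice in 4 groups of 4. Per the labels and the study's methods, the authors used cutadapt 2.7 for trimming, HISAT2 2.2.1 for alignment to GRCm39, HTSeq 2.0.4 for counts per gene and DESeq2 1.38.3 to compare groups. The authors deposited raw counts per gene, used here, and normalized values, not used. Of 21959 listed genes, 21770 identifiers were in GENCODE M39. Totals of 18368994 to 23877131 counts per mouse set the counting precision.

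Tests ran in R 4.3.3 with edgeR 4.0.16 on the counts as deposited: TMM factors, the filterByExpr filter (minimum count 10), 1 quasi-likelihood fit over the 4 groups, Benjamini-Hochberg adjustment over 13968 genes and a threshold of 0.05. The 6 pairwise comparisons and the interaction were tested. The code was tested on simulated counts with known changes. Correlations used log2 CPM with a prior count of 2. Ratios, shares and permutation tests used Python 3.11.15 with scipy 1.17.1. Sequences came from GENCODE M39 transcripts (GRCm39) and RefSeq promoters (GRCm38.p6). Alternatives were other scalings, filters, DESeq2 1.42.0, fits of 8 mice, a replicate block, summed control pairs, summed near copies and leaving out each mouse.

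Named genes are the 8 members, any gene of the listed marker and pathway lists beside the count of its list, and the 10 genes most like the members by correlation. The members and lists were chosen with earlier results of these data known. Ahsp, on the wider list, was not analysed here, and some other erythroid genes are not reported here. Whether the replicates differ by more than the mouse is not stated, so p-values measure the spread between these 16 mice.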

Additional observations from a re-analysis of the deposited data

Results flagged for a closer look

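In 32 groups of 4 mice (8 genes in 4 groups), 5 held a mouse whose gap to its nearest neighbour was most of the group's range by Dixon's criterion at 95%, where chance gives about 1.6. Of these, 4 are KN046 mouse 3: Hba-a1 at 115.7 CPM (others 19.1 to 35.5), Hbb-bs at 157.1 CPM (others 31.0 to 40.5), Hbb-bt at 28.7 CPM (others 3.84 to 5.01) and Alas2 at 15.3 CPM (others 3.25 to 4.91). These genes follow each other across mice, so this is 1 mouse seen in 4 genes. The fifth is Slc4a1 in SB525334 mouse 3, at 0.215 CPM (5 counts) with 0 counts in the other 3 mice of the group, the SB525334 mouse that also had the highest globins.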

How the results depend on the processing

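No log2 difference of a member changed sign where it was called, and the counts of members called moved as follows from their main values. SB525334 against control, 1 member by the main fit, gave 0 with upper quartile scaling, library totals, a filter at 1 CPM, the replicate block and summed control pairs, 3 with no filter, 2 with DESeq2, 6 with DESeq2 at the study's thresholds (unadjusted p under 0.05 and a fold over 2), 5 with the 8 mice alone and 0 to 4 on leaving out 1 mouse. Combination against control (1) gave 0 with DESeq2, the 8 mice alone, the replicate block and summed control pairs, 2 at the study's thresholds and 0 to 1 on leaving out 1 mouse. Combination against KN046 (1) gave 0 with the replicate block and 0 to 1 on leaving out 1 mouse. Combination against SB525334 (1) gave 7 at the study's thresholds, 0 with the 8 mice alone and 1 to 6 on leaving out 1 mouse. SB525334 against KN046 (4) gave 2 with library totals, 1 with the replicate block and 0 to 4 on leaving out 1 mouse. The interaction (0) gave 1 with no filter, 1 with DESeq2, 3 at the study's thresholds and 0 to 1 on leaving out 1 mouse. The 1 member in each of the combination comparisons is Slc4a1, which entered the fit through its values in combination mice. The share of all genes called under each alternative is not set beside these counts. They show how calls of members moved, not whether the members differ from other genes. KN046 against control stayed at 0 under every alternative run. The cause of these moves was not tested, other than that fewer mice enter the fits with summed pairs or a mouse left out.

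Same-numbered mice of different groups did not deviate together throughout: the 24 correlations ran from -0.370 to 0.407, 7 of them over 0.1. Differently numbered mice were not compared, so this does not settle whether the numbers pair the mice. What the fewer calls under the replicate block above reflect was not tested, and they are no measure of a weaker effect. Low counts limit Klf1, Ermap, Hba-a2 and Slc4a1, where 1 read is a large step.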
